A study of Homo sapiens with 10 samples.

Results

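The 8 genes described here encode the vascular endothelial growth factor (VEGF) ligands VEGFA, VEGFB, VEGFC and PGF, the receptor tyrosine kinases FLT1 and KDR, and the coreceptors NRP1 and NRP2. They were chosen by symbol, and each had 1 probe set among the 14884 genes named on the array. RNA was measured on Affymetrix expression arrays in MCF10A, a human mammary epithelial cell line that grows indefinitely but forms no tumours. There were 5 arrays of H2A.X-KO cells, in which the gene of the histone variant H2A.X was knocked out, and 5 of parental cells (WT) that carry it. Both groups were kept for 48 h in the same serum-containing medium with EGF, insulin, hydrocortisone and cholera toxin. The labels do not say whether the 5 samples of a group were separate cultures or whether the knockout came from 1 clone. The p-values therefore rest on the spread between these arrays alone, part or all of which may be technical.

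VEGF ligands are secreted dimers that bind receptor tyrosine kinases best known from the endothelium, where KDR carries most of the signal for growth, migration and permeability. FLT1 binds VEGFA, VEGFB and PGF with weak kinase activity and is often described as a decoy. Neuropilins bind VEGF and class 3 semaphorins and present ligand to the kinase receptors. Epithelial cells are known as a source of VEGFA, whose transcription rises in low oxygen and under stress of the endoplasmic reticulum.

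The values are log2 signals as deposited, with array medians between 4.26 and 4.35. Pairs of arrays of the same group correlated at 0.991 to 0.996 over all genes, and pairs of different groups at 0.975 to 0.979. H2A.X-KO replicate 1 stood apart on the second principal component, which held 7.53% of the variance, at 20.2 against -9.47 to -2.52 for the other knockout arrays and -5.98 to 5.85 for the parental arrays. The targeted gene was not analysed here, so the groups rest on the labels. Of the epithelial markers fixed for this line, 3 were measured, and all were bright in both groups and rose in the knockout with no overlap. KRT14 was at 10.85 in H2A.X-KO cells and 8.26 in WT cells (difference 2.59), KRT5 at 10.34 in H2A.X-KO cells and 9.57 in WT cells (0.78), and EGFR at 11.10 in H2A.X-KO cells and 10.41 in WT cells (0.69). Their part in the results of the 8 genes was not tested. Signals of different probe sets depend on the probes as well as on the RNA, so levels are compared between groups for each gene and not ranked between genes.

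Knockout cells had lower signal of the ligand genes VEGFA and VEGFC and of the coreceptor gene NRP1, and higher signal of the receptor gene KDR and, by a small margin, of NRP2. VEGFB, PGF and FLT1 did not pass the test. A gene passed at a Benjamini-Hochberg adjusted p under 0.05 over all genes in limma, a linear model with a shared estimate of spread. Of the 8 genes, 3 fell, 2 rose and 3 did not pass, so 62.5% were called, against 34.3% of all genes. By direction, 19.0% of all genes fell and 15.3% rose. In 4 of the 8 the knockout arrays lay wholly on one side of the parental arrays, a separation seen in 28.2% of all genes. VEGFA and KDR passed and differed at least 2-fold, as did 2.81% of all genes. The median size of the difference was 0.42 on the log2 scale for the 8 genes and 0.14 for all genes. These counts describe 8 genes that were chosen with earlier results known.

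**Figure D1:**
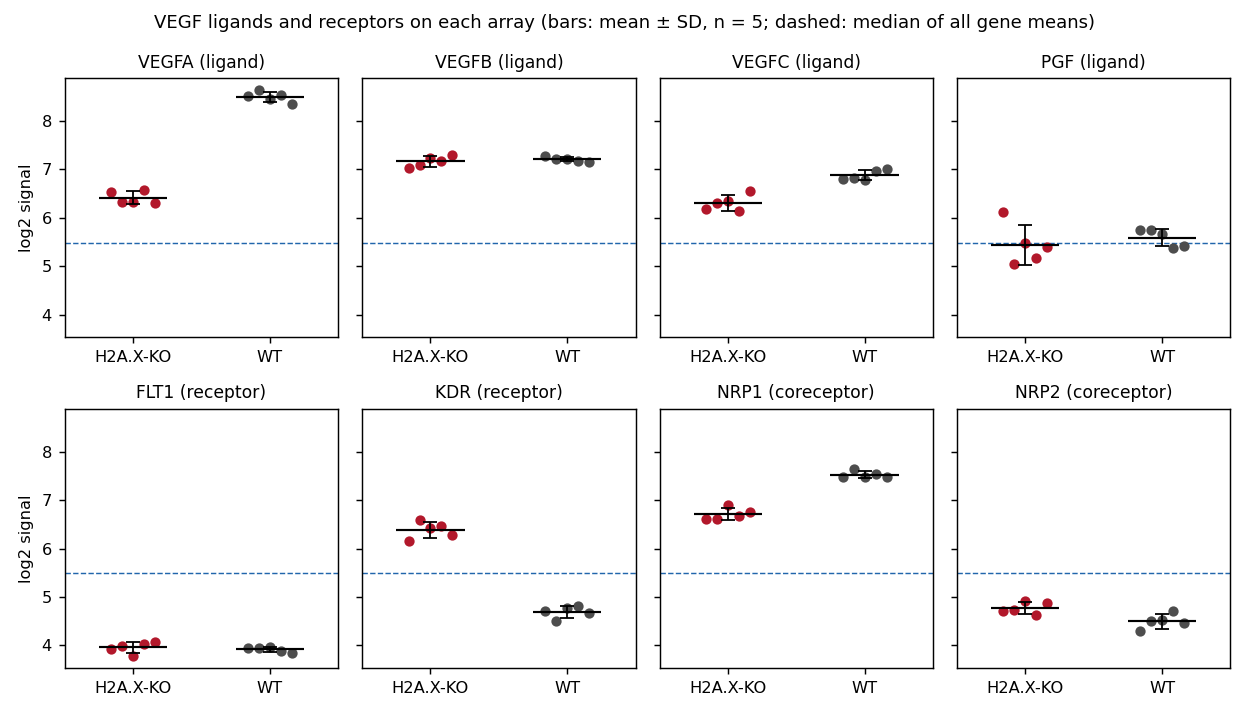
Log2 signal of the 8 genes on each array, with H2A.X-KO cells on the left of each panel and WT cells on the right. Points are arrays, bars are the mean and SD of 5 arrays, and the dashed line is the median of all gene means, 5.49. VEGFA, VEGFC, NRP1 and KDR do not overlap between groups, and H2A.X-KO replicate 1 is the highest PGF value, at 6.12.

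VEGFA, the ligand through which KDR is mainly activated, showed the largest difference of the 8. Its log2 signal was 6.54, 6.33, 6.33, 6.57 and 6.30 in H2A.X-KO replicates 1 to 5, against 8.51, 8.64, 8.45, 8.54 and 8.35 in WT replicates 1 to 5. All knockout arrays lay far below all parental arrays, and the spread within either group was small. The means were 6.41 ± 0.13 in H2A.X-KO cells and 8.50 ± 0.11 in WT cells (SD, n = 5 each). The difference was -2.08 ± 0.08 (SE, limma adjusted p = 7.23e-10), a 4.24-fold lower signal and the 28th largest fall of the 14884 genes. The exact two-sided permutation test of the 5 against 5 arrays gave p = 0.00794, the smallest it can give. In this RNA from whole cultures, fewer expressing cells and less RNA per cell cannot be told apart. The single probe set does not separate the splice forms of VEGFA.

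VEGFC, a ligand of the lymphatic receptor FLT4 that also binds KDR, fell less. It was at 6.19, 6.31, 6.35, 6.15 and 6.56 in H2A.X-KO replicates 1 to 5, against 6.81, 6.83, 6.77, 6.97 and 7.01 in the WT replicates. The groups did not overlap, with the highest knockout array, replicate 5, below the lowest parental array. The difference was -0.57 ± 0.08 (SE, limma adjusted p = 0.000122), 1.48-fold lower.

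VEGFB and PGF bind FLT1 and not KDR, and neither passed. VEGFB ranged from 7.04 to 7.30 in H2A.X-KO cells, within which lay all WT arrays, at 7.16 to 7.27. Its difference was -0.04 with a 95% interval of -0.17 to 0.09 (limma adjusted p = 0.666), which leaves room for only a small change in either direction. PGF, the placental growth factor gene, was at 6.12, 5.04, 5.48, 5.17 and 5.40 in H2A.X-KO replicates 1 to 5, against 5.75, 5.75, 5.67, 5.38 and 5.42 in the WT replicates. Replicate 1 was the highest of all arrays, while the other knockout arrays lay in or below the lower part of the parental range. The difference was -0.15 with a 95% interval of -0.52 to 0.22 (limma adjusted p = 0.563). Without H2A.X-KO replicate 1 it was -0.32 and passed (limma adjusted p = 0.0432), so the PGF result turned on that array.

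KDR, the main signalling receptor for VEGFA, was the receptor gene that rose. Its log2 signal was 6.15, 6.59, 6.43, 6.48 and 6.28 in H2A.X-KO replicates 1 to 5, against 4.72, 4.50, 4.77, 4.82 and 4.67 in WT replicates 1 to 5. All knockout arrays lay above all parental arrays, by more than 1 on the log2 scale. The means were 6.38 ± 0.17 in H2A.X-KO cells and 4.69 ± 0.12 in WT cells (SD, n = 5 each). The difference was 1.69 ± 0.09 (SE, limma adjusted p = 1.43e-08), a 3.23-fold higher signal and the 41st largest rise among all genes. The knockout mean lay above the median of all gene means, 5.49, and the parental mean below it. Differences of dim probe sets are compressed on arrays, so the fold is uncertain.

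FLT1, the sister receptor, was dim in both groups and did not pass. It ranged from 3.78 to 4.08 in H2A.X-KO cells and from 3.85 to 3.97 in WT cells, and the groups overlapped. The difference was 0.04, with a 95% interval of -0.09 to 0.18 (limma adjusted p = 0.667). At this signal, at percentile 23.3 of all gene means, a change of the transcript could be missed, and the membrane and soluble forms of FLT1 are not told apart.

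The coreceptor genes moved in opposite directions. NRP1, which binds VEGFA and enhances its action through KDR, was at 6.61, 6.60, 6.91, 6.67 and 6.76 in H2A.X-KO replicates 1 to 5, against 7.48, 7.65, 7.48, 7.54 and 7.48 in the WT replicates. The groups did not overlap, and the difference was -0.82 ± 0.07 (SE, limma adjusted p = 1.07e-06), 1.76-fold lower. NRP2, known for its part in VEGFC signalling in lymphatic vessels, was at 4.71, 4.73, 4.92, 4.63 and 4.88 in H2A.X-KO replicates 1 to 5, against 4.29, 4.50, 4.52, 4.72 and 4.46 in the WT replicates. WT replicate 4 lay above H2A.X-KO replicates 1 and 4, so the groups overlapped. The NRP2 difference was 0.27 ± 0.08 (SE, limma adjusted p = 0.0212). Its call ended without WT replicate 1 (0.22, limma adjusted p = 0.0533), without H2A.X-KO replicate 3 (0.24, limma adjusted p = 0.0543) and without H2A.X-KO replicate 5 (0.25, limma adjusted p = 0.0521).

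**Figure D2:**
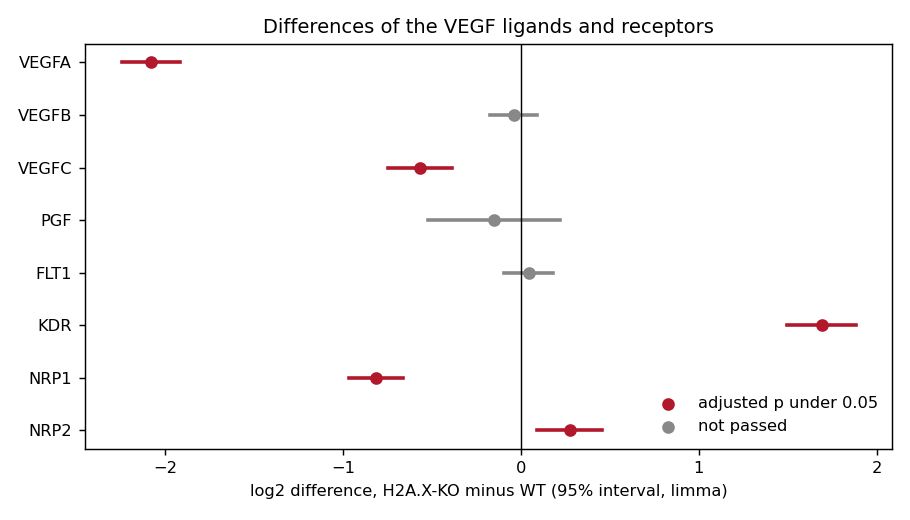
Log2 difference of each gene, H2A.X-KO minus WT, with its 95% interval from limma. VEGFA, VEGFC and NRP1 lie below 0, KDR and NRP2 above it, and the intervals of VEGFB, PGF and FLT1 include 0.

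The promoters of KDR, FLT1 and VEGFC are shown because KDR is the receptor gene that rose, FLT1 is its sister gene and VEGFC is the falling gene whose promoter is at hand. They were taken from RefSeq in GRCh38.p14 and run from 250 bases before the start of the gene to 50 bases after it. The KDR window is chr4:55125546-55125845, that of FLT1 chr13:28495079-28495378 and that of VEGFC chr4:176792873-176793172, all on the minus strand. Capitals mark each CANNTG, the E-box bound by factors such as TWIST1 and Slug, named in the study's title, and each GGGCGG, the GC box of SP1, on either strand (CCGCCC is the GC box of the other strand).
KDR: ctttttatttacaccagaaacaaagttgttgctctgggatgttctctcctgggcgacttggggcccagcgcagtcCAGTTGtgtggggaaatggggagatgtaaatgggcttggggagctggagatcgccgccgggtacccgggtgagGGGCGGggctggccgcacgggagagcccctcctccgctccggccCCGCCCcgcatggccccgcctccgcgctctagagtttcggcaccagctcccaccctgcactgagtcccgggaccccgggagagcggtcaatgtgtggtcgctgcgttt
FLT1: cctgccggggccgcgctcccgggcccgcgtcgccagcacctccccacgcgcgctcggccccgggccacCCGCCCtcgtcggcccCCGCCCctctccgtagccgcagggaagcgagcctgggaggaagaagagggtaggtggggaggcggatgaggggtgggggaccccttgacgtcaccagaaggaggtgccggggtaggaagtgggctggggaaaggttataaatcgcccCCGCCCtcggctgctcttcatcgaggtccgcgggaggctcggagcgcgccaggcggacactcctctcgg
VEGFC: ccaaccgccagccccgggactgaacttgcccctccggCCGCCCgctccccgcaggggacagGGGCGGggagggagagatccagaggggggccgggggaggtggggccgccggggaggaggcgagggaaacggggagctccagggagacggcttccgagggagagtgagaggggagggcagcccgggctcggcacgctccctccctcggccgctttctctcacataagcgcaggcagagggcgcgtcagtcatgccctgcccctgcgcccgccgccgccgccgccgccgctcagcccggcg

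The KDR window held 1 E-box, CAGTTG, that starts 175 bases before the gene start, and 2 GC boxes. Those of FLT1 and VEGFC held no CANNTG, with 3 and 2 GC boxes. The table held windows for 6 of the 8 genes, NRP2, KDR, VEGFC, VEGFB, FLT1 and PGF, with a pair of starts for PGF. A CANNTG was found for 4 of the 6, NRP2, KDR, VEGFB and PGF, and in 68.7% of all 35116 windows of this length. CAGGTG, the E-box form preferred by Snail family factors and a special case of CANNTG, was found for PGF only and in 20.6% of all windows. GGGCGG was found for all 6 and in 45.0% of all windows. ACGTG, a form of the hypoxia response core, was found for none of the 6 and in 21.4% of all windows. GCGTG, another form of that core, was not counted over all windows. It or its reverse complement, CACGC, occurs in the windows of FLT1, VEGFC, VEGFB and PGF. TGACG, the core of the cyclic AMP response element, was found for VEGFC, FLT1 and PGF and in 24.6% of all windows. Each counted motif was searched on both strands. The windows of the 6 genes had 65.0% to 84.7% G and C, above the median of 58.7% over all windows. A match is a string of letters and not a bound site, and its absence here says nothing of sequence outside the window.

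The log2 ratio of 5 pairs of members was taken on each array. The value of a ratio depends on the probes, and only its difference between groups is read. The VEGFA over VEGFC ratio was -0.27 to 0.42 in H2A.X-KO cells, against 1.34 to 1.81 in WT cells, a difference of -1.52. The VEGFA over VEGFB ratio differed by -2.04 and the VEGFA over PGF ratio by -1.93. VEGFA thus fell relative to each of the other ligand genes on every knockout array. The KDR over FLT1 ratio was 2.20 to 2.65 in H2A.X-KO cells, against 0.56 to 0.93 in WT cells, a difference of 1.65. FLT1 is dim, so this ratio largely restates the KDR difference and does not show that FLT1 was unchanged. The NRP1 over NRP2 ratio was 1.87 to 2.05 in H2A.X-KO cells, against 2.82 to 3.19 in WT cells, a difference of -1.09. No ratio overlapped between groups. Each gave p = 0.00794 in the exact two-sided permutation test, the smallest that 5 against 5 arrays allow, and 0.00794 after Benjamini-Hochberg adjustment over the 5 ratios. The ratios are made of the same values as the differences of the single genes, so they are not separate support for those.

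**Figure D3:**
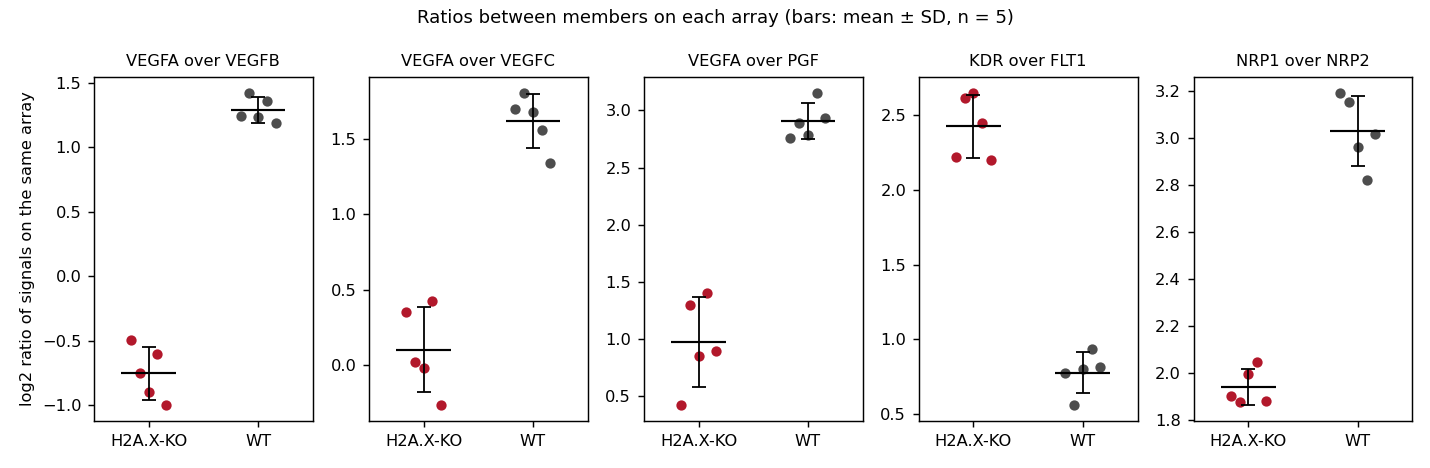
Log2 ratio of the signals of 2 genes on the same array for 5 pairs, with H2A.X-KO cells on the left and WT cells on the right. Points are arrays and bars the mean and SD of 5 arrays. Each panel has its own axis, and in each the groups do not overlap.

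KDR is a marker of endothelial cells, so the other markers of that cell type were read beside it. Of 9 measured endothelial markers, 0 passed in limma, and their differences ran from -0.04 (VWF) to 0.23 (ERG, limma adjusted p = 0.0548). At an unadjusted p under 0.05, ERG alone counted, and 1 marker passed the adjusted test without WT replicate 3, without H2A.X-KO replicate 2 and with the replicate block. The summed linear signal of the 9 was 181 to 211 in H2A.X-KO arrays, against 179 to 187 in WT arrays. Their group means were 2.58 to 5.55 on the log2 scale, all near or below the median of all gene means. PECAM1, an adhesion molecule of endothelial junctions, was at 3.19 in H2A.X-KO cells and 3.10 in WT cells. VWF, the von Willebrand factor gene, was at 3.97 in H2A.X-KO cells and 4.01 in WT cells. Of 8 fibroblast and mural markers, 4 rose, led by DCN (2.06), MFAP5 (1.49) and FBLN1 (1.35), and 2, RGS5 and DPT, fell, so 75.0% passed, against 34.3% of all genes. Their summed linear signal was 632 to 705 in H2A.X-KO arrays, against 365 to 391 in WT arrays, and its part in the results of the 8 genes was not tested.

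Genes that process VEGF or hold it in the matrix moved in both directions. Of 7 measured, 3 rose and 2 fell, so 71.4% passed, against 34.3% of all genes. The median difference was 0.14, against 0.00 for all genes. CCBE1, a secreted cofactor for the proteolytic activation of VEGFC, was at 8.18 in H2A.X-KO cells and 6.12 in WT cells, a rise of 2.06 ± 0.09 (SE, limma adjusted p = 2.88e-09). It was higher while VEGFC itself was lower. HSPG2, which encodes the matrix proteoglycan perlecan, rose by 1.05, and CCN2, whose product binds VEGFA, rose by 0.70, but its other probe set, dim in both groups, gave 0.06. The convertase genes FURIN (-0.36) and PCSK7 (-0.65), whose products cleave the VEGFC precursor, fell.

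The oxygen-sensing genes were split. Of 13 measured hypoxia-inducible targets, 7 rose, 5 fell and 1 did not pass, with a median of 0.21, so 92.3% passed, against 34.3% of all genes. CA12, a carbonic anhydrase gene, rose by 1.09 and LOX, a collagen crosslinking enzyme gene, by 1.01. ANGPTL4 (0.99), ADM (0.76), LDHA (0.48), PGK1 (0.33) and MXI1 (0.21) also rose. VLDLR, a lipoprotein receptor gene, fell by 1.55, and NDRG1 (-0.92), ANKRD37 (-0.36), BNIP3 (-0.21) and BNIP3L (-0.18) also fell. ANKRD37 and BNIP3L overlapped between groups. The falls numbered 4 under some alternatives, among them quantile normalisation and the replicate block. Of 4 measured genes of the hypoxia factor and its regulators, ARNT, the partner of the hypoxia-inducible factors, rose by 0.39 and EGLN1, a prolyl hydroxylase that marks them for destruction, fell by 0.64, so 2 of 4 passed, while EPAS1 (0.19) and EGLN3 (-0.07) did not pass. There were 2 rises in this list without H2A.X-KO replicate 1, under quantile normalisation, without the dimmest genes, with an intensity trend, with array weights and with the mean of probe sets, so the EPAS1 result (limma adjusted p = 0.0506) lies at the threshold.

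Other known regulators of VEGFA transcription or RNA were split as well. Of 11 measured, 4 rose and 5 fell (81.8% passed, against 34.3% of all genes), with a median of -0.07. When arrays were centred on their medians, 2 rose. The largest falls were in XBP1 (-1.87) and ATF6 (-1.28), transcription factors of the unfolded protein response. MYC rose by 0.77. JUN (-0.70) and ATF4 (-0.60) fell and STAT3 rose (0.47), the last 3 named after their values were seen.

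Downstream of the receptors, 2 of 13 measured signalling genes rose and 5 fell (median -0.02), so 53.8% passed, against 34.3% of all genes. MAPKAPK2, a kinase of the p38 branch that acts on actin, fell by 0.63, and SPHK1, a sphingosine kinase gene, and SH2D2A, the gene of a KDR adaptor, each fell by 0.43. The rises were in PXN (0.41) and PTK2 (0.22), which encode paxillin and focal adhesion kinase. Of 8 measured genes that respond to VEGF in endothelium, PTGS2 (-0.55) and RCAN1 (-0.31) fell and DUSP5 (0.34) rose, with a median of -0.02. The share passed, 37.5%, was close to the 34.3% of all genes. The DUSP5 call did not hold without WT replicate 1, 2 or 3 or H2A.X-KO replicate 3 or 4, with arrays centred on their medians or with all probe sets in the fit, where 0 genes of that list rose. Its other probe set gave 0.15.

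Among partners of the neuropilins, class 3 semaphorins and plexins, 5 of 12 listed genes were measured, all of them plexins. PLXNA1 and PLXNA2, whose products form semaphorin receptors with neuropilins, rose by 0.54 and 0.53. The share passed, 40.0%, was near the 34.3% of all genes. The other 3 did not pass, of which 1 fell without WT replicate 4, without H2A.X-KO replicate 4 or without the dimmest genes. Of 6 other VEGF and PDGF family genes, PDGFD rose by 1.35 and PDGFA (-0.63) and PDGFC (-0.53) fell. Thus 3 of 6 passed, against 34.3% of all genes. FLT4, the receptor of VEGFC, was at 4.50 in H2A.X-KO cells and 4.30 in WT cells (difference 0.19, limma adjusted p = 0.122). Without WT replicate 4, or with the replicate block, 2 genes of this list rose.

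Other angiogenic factors numbered 11 measured, of which 3 rose and 3 fell (54.5% passed, against 34.3% of all genes), with a median of -0.07. FGF2, the basic fibroblast growth factor gene, was at 8.09 in H2A.X-KO cells and 9.77 in WT cells, a fall of 1.68 (limma adjusted p = 1.12e-10). HBEGF, a heparin-binding ligand of EGFR, fell by 1.66 and ANGPT1, a ligand of the endothelial receptor TEK, rose by 0.78 from a dim signal. Of 7 measured angiogenesis inhibitors, 3 rose and 1 fell (57.1% passed, against 34.3% of all genes), with a median of 0.12. THBS1, which encodes thrombospondin 1, was at 10.98 in H2A.X-KO cells and 8.59 in WT cells, a rise of 2.38 (limma adjusted p = 3.82e-11). ISM1 rose by 0.54 and the metalloprotease inhibitor gene TIMP3 fell by 0.44. The remaining rise, in CXCL10 (0.37), was between dim signals, 2.76 in H2A.X-KO cells and 2.39 in WT cells, and its groups overlapped.

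**Figure D4:**
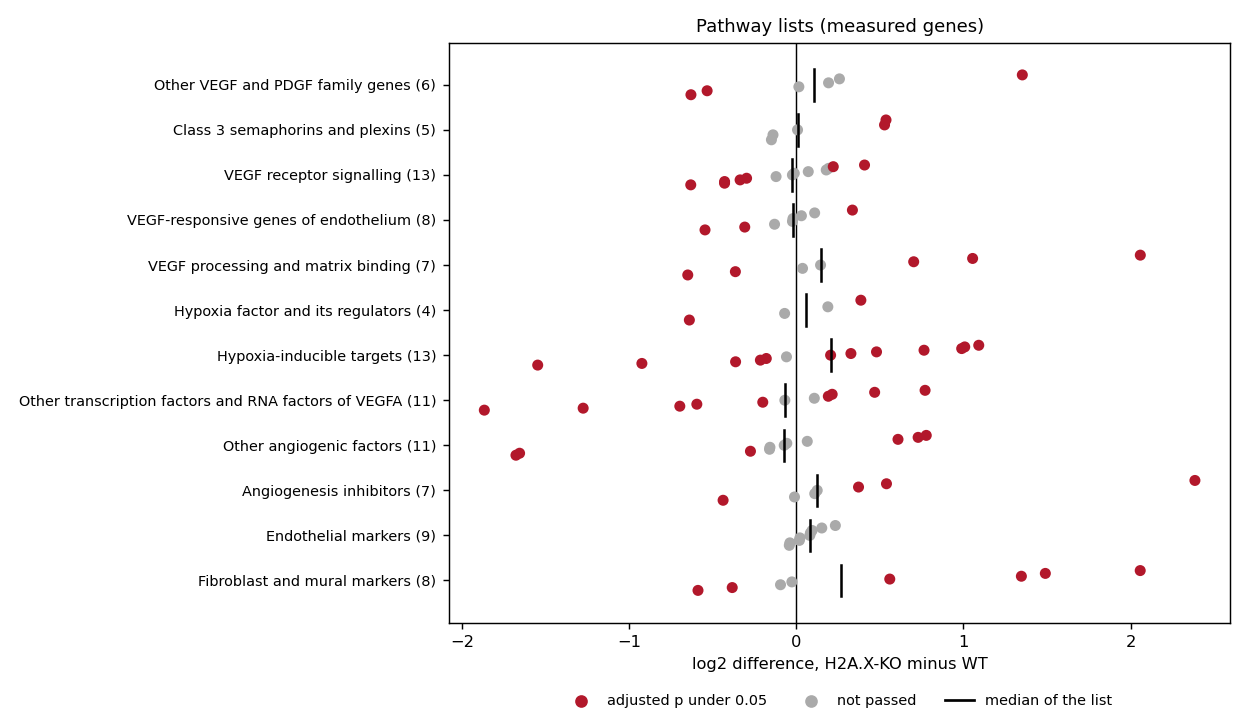
Log2 difference, H2A.X-KO minus WT, of each measured gene in 12 pathway and marker lists, with the number of measured genes in brackets. Red points passed at an adjusted p under 0.05, grey points did not, and black bars are list medians, which lie between -0.07 and 0.27.

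The genes whose profile over the 10 arrays was most like that of VEGFA were STC2, GTPBP2 and FIBIN, with root mean square differences of 0.09, 0.09 and 0.13 between centred log2 values, against a median of 1.06 over all genes. Their differences were -2.07, -2.10 and -2.10. Those most like KDR were ANXA8, DKK1 and ANXA8L1, at 0.10, 0.11 and 0.11 against a median of 0.87, with rises of 1.69, 1.83 and 1.72. ANXA8 and ANXA8L1 are near-identical copies whose probe sets may share signal. With 2 groups so far apart, this measure mainly finds genes with a like difference between them.

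Neighbours on the chromosomes were read from the order of genes in RefSeq (GRCh38.p14). Of the 16 measured genes next to the 8, 8 fell, 1 rose and 7 did not pass, so 56.2% passed, against 34.3% of all genes, of which 19.0% fell and 15.3% rose. Next to VEGFA, MRPS18A (-0.60) and LINC01512 (-0.39) fell. Next to KDR, the receptor gene KIT (0.26) and SRD5A3-AS1 (0.04) did not pass. Next to NRP1, EPC1 and LINC00838, each at -0.04, did not pass. Next to VEGFC, SPCS3 (-0.83) fell and NEIL3 (0.53) rose. The other falls lay beside members that were not called lower. They were NUDT22 (-0.23) by VEGFB, RPS6KL1 (-0.42) and MLH3 (-0.19) by PGF, POMP (-0.40) by FLT1 and PARD3B (-0.29) by NRP2. BAD, PAN3 and INO80D did not pass.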

How the data were processed

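RNA of 10 MCF10A samples was measured on Affymetrix arrays. The deposited table gives a log2 signal for each probe set and array, summarised and normalised by the authors, who used Affymetrix Expression Console and Partek 6.6 per the submitters' processing notes. The summarisation method is not given in the sources used here, and the log2 scale was read from the values, 1.13 to 13.87. Of 53617 probe sets, 16098 had 1 gene symbol in the platform annotation, updated by Entrez identifier in RefSeq GRCh38.p14, 0 had several and 37519 had none. The probe set with the highest mean stood for each of 14884 genes.

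Groups follow the sample titles. Differences are H2A.X-KO minus WT, tested on all genes with limma 3.58.1 (lmFit and eBayes, R 4.3.3), with no covariate, filter or further normalisation, and Benjamini-Hochberg adjustment over all genes. Exact permutation tests and plots were made in Python 3.11.15 (matplotlib 3.10.9, numpy 2.4.6, pandas 2.3.3). For arrays, their number, 5 against 5, limits the precision. The limma fit was tested on simulated data with known changes in few genes and independent noise on each array. That test does not show how the fit behaves where 34.3% of genes are called. The alternatives were quantile normalisation, median centring, a filter on the dimmest 25% of genes, an intensity trend, a robust prior, array weights, all probe sets in the fit, the mean of a gene's probe sets, each array left out and a replicate block.

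The 8 genes and the lists were chosen with earlier results of these data known. Genes named are the 8, up to 3 of each list that passed with separated groups by size of difference, the 3 profiles nearest to VEGFA and to KDR, and the nearest measured neighbours. Further genes of the lists, such as those that did not pass or the marker genes, were named after their values were seen.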

Additional observations from a re-analysis of the deposited data

Results flagged for a closer look

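In groups of 5 arrays, 3 values stood far from the other 4 of their group by Dixon's criterion, among 84 groups of values examined for the 8 genes, the named list genes and the ratios, where chance gives about 1 in 20. None was in the 8 genes or their ratios. PDGFC was at 5.58 in H2A.X-KO replicate 1, against 5.81 to 5.86 in the other knockout arrays. ISM1 was at 4.86 in WT replicate 4, against 5.24 to 5.33 in the other parental arrays. MFAP5 was at 4.87 in WT replicate 1, against 4.30 to 4.42 in the other parental arrays.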

How the results depend on the processing

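VEGFA, VEGFC, KDR and NRP1 kept their direction and their call under all 19 alternatives, with differences of -2.12 to -2.05, -0.63 to -0.53, 1.64 to 1.75 and -0.87 to -0.78. VEGFB (-0.07 to -0.01) and FLT1 (0.01 to 0.09, and left out by the filter on dim genes) did not pass under any. With an array left out PGF ran from -0.32 to -0.050 and NRP2 from 0.22 to 0.33. With all probe sets in the fit the NRP2 difference, 0.27, did not pass (limma adjusted p = 0.0548), which left 1 of the 8 genes higher, and with an array left out 1 to 2 were higher and 3 to 4 lower. All 5 ratios kept direction and call under the 12 alternatives run for them. Of 456 counts of the pathway lists under alternatives, 434 stayed within 1.5 times. Deviations of same-numbered arrays from their group means correlated at 0.20 for replicate 1 and at -0.01 to 0.05 for the other numbers. Of 10 arrays, 3 correlated best with their own number. The labels state no pairing, and the main fit used none. A replicate block changed no call of the 8 genes (VEGFA -2.08, KDR 1.69, NRP2 0.27 with limma adjusted p = 0.0368) and called 2201 genes higher and 2771 lower, against 2273 and 2835 without it. Dim signals, such as those of FLT1 and NRP2, limit what can be seen.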

Other observations

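GTPBP2, whose profile was among the 3 most like that of VEGFA, lies 4 measured genes from it on the same chromosome, which led to a look at 5 measured genes on either side, chosen after this was seen. Of these 10, 4 fell, 2 rose and 4 did not pass, where 34.3% of all genes passed, and their median was 0.07. GTPBP2 was at 6.32 ± 0.07 in H2A.X-KO cells and 8.42 ± 0.12 in WT cells (SD, n = 5 each). Between it and VEGFA, MAD2L1BP (0.11) and RSPH9 (0.15) did not pass and MRPS18A (-0.60) fell. XPO5 (-0.43), just beyond GTPBP2, fell as well. On the other side of VEGFA, LINC01512 (-0.39) fell and TMEM63B (0.88) and MRPL14 (0.38) rose, while CAPN11 (0.08) and TMEM151B (0.06) did not pass. Of the 10 genes around KDR, CHIC2 (-1.10) and CLOCK (-0.27) fell, NMU (1.09) rose and 7 did not pass, with a median of -0.01. Of the 10 around NRP1, 4 fell, among them CREM (-0.84) and KIF5B (-0.83), 1 rose and 5 did not pass, with a median of -0.04. Of the 10 around VEGFC, 2 fell, 2 rose and 6 did not pass, with a median of -0.05.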
